A study of Homo sapiens with 9 samples.

Results

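The messenger RNAs of 9 lysophospholipid acyltransferase genes were measured in cells of ACHN, a line established from a human renal cell carcinoma, after the fatty acid elongase ELOVL5 had been targeted with CRISPR/Cas9. The 9 genes were taken by name from the 57773 features of the deposited table: LPCAT1, LPCAT2, LPCAT3, LPCAT4, MBOAT1, MBOAT2, MBOAT7, LCLAT1 and LPGAT1. The groups were KO#1 and KO#2, cells given either of 2 ELOVL5 guides, and sgControl, cells given a control guide, with 3 RNA-seq libraries each. All 3 groups are ACHN cells that received a guide RNA, and the labels do not say whether any group is a clone or a pool, or whether the libraries of a group came from separate cultures, so the p-values cover the variation among these libraries and no more. The series is about the part ELOVL5 plays in the growth and invasion of renal carcinoma cells. Library numbers follow sample order. The labels name no pairing of libraries across groups, so none was modelled, and whether the libraries were made in sets is unknown.

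Membrane phospholipids are remodelled in what is known as the Lands cycle: a phospholipase removes one fatty acid, and a lysophospholipid acyltransferase attaches another, taken from an acyl-CoA. The enzymes belong to separate families, the AGPAT family (LPCAT1, LPCAT2, LPCAT4, LCLAT1 and LPGAT1) and the membrane-bound O-acyltransferases (LPCAT3, MBOAT1, MBOAT2 and MBOAT7), and each prefers certain head groups and certain acyl chains. ELOVL5 lengthens polyunsaturated acyl-CoAs, which are among the donors that the remodelling enzymes use.

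The values are a signal that the authors made by quantile normalization of total counts, so every library has the same total of 8625043.6 and its raw depth is unknown. Fold changes are differences of log2(value + 1), and calls are those with an adjusted p under 0.05 in limma (Benjamini-Hochberg), over 12985 tested genes with a mean signal of at least 10. KO#2 replicate 1 stood apart. Its correlation with the other KO#2 libraries, across genes on the log2 scale, was 0.672 and 0.737, where all other pairs within a group lay between 0.937 and 0.978. A feature with 10 reads had a signal of 55.7 to 63.3 in that library and of 6.67 to 13.9 in the other 8, as read back from the order of tied values. ELOVL5 itself had a signal of 805, 1345 and 1016 in KO#1 libraries and of 434, 1805 and 910 in KO#2 libraries, against 1999, 2713 and 2063 in sgControl. All 6 knockout libraries lay below all sgControl libraries, as was so for 5.9% of all tested genes. The log2 fold changes of ELOVL5, -1.11 in KO#1 (SE 0.467, adjusted p = 0.383) and -1.32 in KO#2 (SE 0.467, adjusted p = 0.240), were not called. Without KO#2 replicate 1 ELOVL5 was called in KO#1 (adjusted p = 0.0314) and not in KO#2 (-0.80, adjusted p = 0.162). In KO#2 the lowest adjusted p with 1 library left out was 0.0383, the 1 call among the 9 libraries left out in turn. Over 20 alternatives to the main model ELOVL5 was called in 5 for KO#1 and in 3 for KO#2. Its fold change stayed negative in all of them, at -1.31 to -0.94 in KO#1 and -1.83 to -0.80 in KO#2. Of 10 kidney epithelium and renal carcinoma markers, 8 were detected. PAX8 among them lay at 1898 to 2558 in KO#1 and 1673 to 3684 in KO#2, against 2813 to 3670 in sgControl. Every KO#1 library thus lay below sgControl for PAX8, as was so for 15.9% of all tested genes. CDH6 and CA9 were listed at 0. Whether a value of 0 throughout means no messenger RNA or comes from how the table was counted is not known. Of the leukocyte markers, CD3E and LYZ were listed at 0 and PTPRC reached at most 0.889 in the knockout libraries, while CD68 lay at 3.22 to 6.67 in KO#1 and 2.33 to 85.9 in KO#2, the highest in KO#2 replicate 1, against 6.11 to 14.3 in sgControl. The fibroblast marker COL1A1 lay at 54.8 to 102 in KO#1 and 27.6 to 45.9 in KO#2, against 27.8 to 66.8 in sgControl, with COL1A2 and DCN at 0. The neuronal marker SYT1 lay at 66.7 to 137 in KO#1 and 115 to 196 in KO#2, against 82.2 to 126 in sgControl. The other neuronal marker, SNAP25, reached at most 1 in KO#1 and 1.56 in sgControl and was listed at 0 in KO#2. The endothelial marker VWF lay at 1.44 to 3.78 in KO#1 and 0 to 15.4 in KO#2, against 10.8 to 25.1 in sgControl. Of the other endothelial markers, KDR was listed at 0 throughout. CDH5 reached at most 0.444 in KO#1 and 1 in KO#2 and was listed at 0 in sgControl. The part of these markers in the results was not tested.

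LPCAT1 was the one acyltransferase gene whose messenger RNA differed from sgControl by the test, and it was lower with both guides. LPCAT1 adds mostly saturated acyl chains to lysophosphatidylcholine and is known for making the dipalmitoyl phosphatidylcholine of lung surfactant. Its signal was 506, 1010 and 519 in KO#1 libraries and 799, 1082 and 749 in KO#2 libraries, against 3014, 2995 and 2378 in sgControl libraries. The highest knockout library lay well under the lowest sgControl library, and the groups did not overlap; all 6 knockout libraries lay below sgControl for 5.9% of all tested genes. The means were 678 ± 287 in KO#1, 876 ± 179 in KO#2 and 2796 ± 362 in sgControl (SD, n = 3 each).

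The log2 fold change of LPCAT1 was -2.11 in KO#1 (SE 0.339, 95% interval -2.86 to -1.36, adjusted p = 0.00915) and -1.68 in KO#2 (SE 0.339, 95% interval -2.43 to -0.93, adjusted p = 0.0316). Averaged over both guides it was -1.90 (SE 0.294, adjusted p = 0.00541). The guides themselves were not told apart: KO#2 against KO#1 gave 0.43, with a 95% interval from -0.32 to 1.18 and an adjusted p of 0.748. In bulk RNA, fewer cells with LPCAT1 messenger RNA and less of it in each cell cannot be told apart. The call depended on single libraries. In KO#1 it was lost without sgControl replicate 1 (adjusted p = 0.0630), without KO#1 replicate 1 (0.0665) or without KO#1 replicate 3 (0.0661), and in KO#2 without any one of the sgControl libraries (0.114 to 0.164), without KO#1 replicate 1 (0.0588), without KO#1 replicate 3 (0.0647) or without KO#2 replicate 3 (0.0890).

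**Figure D1:**
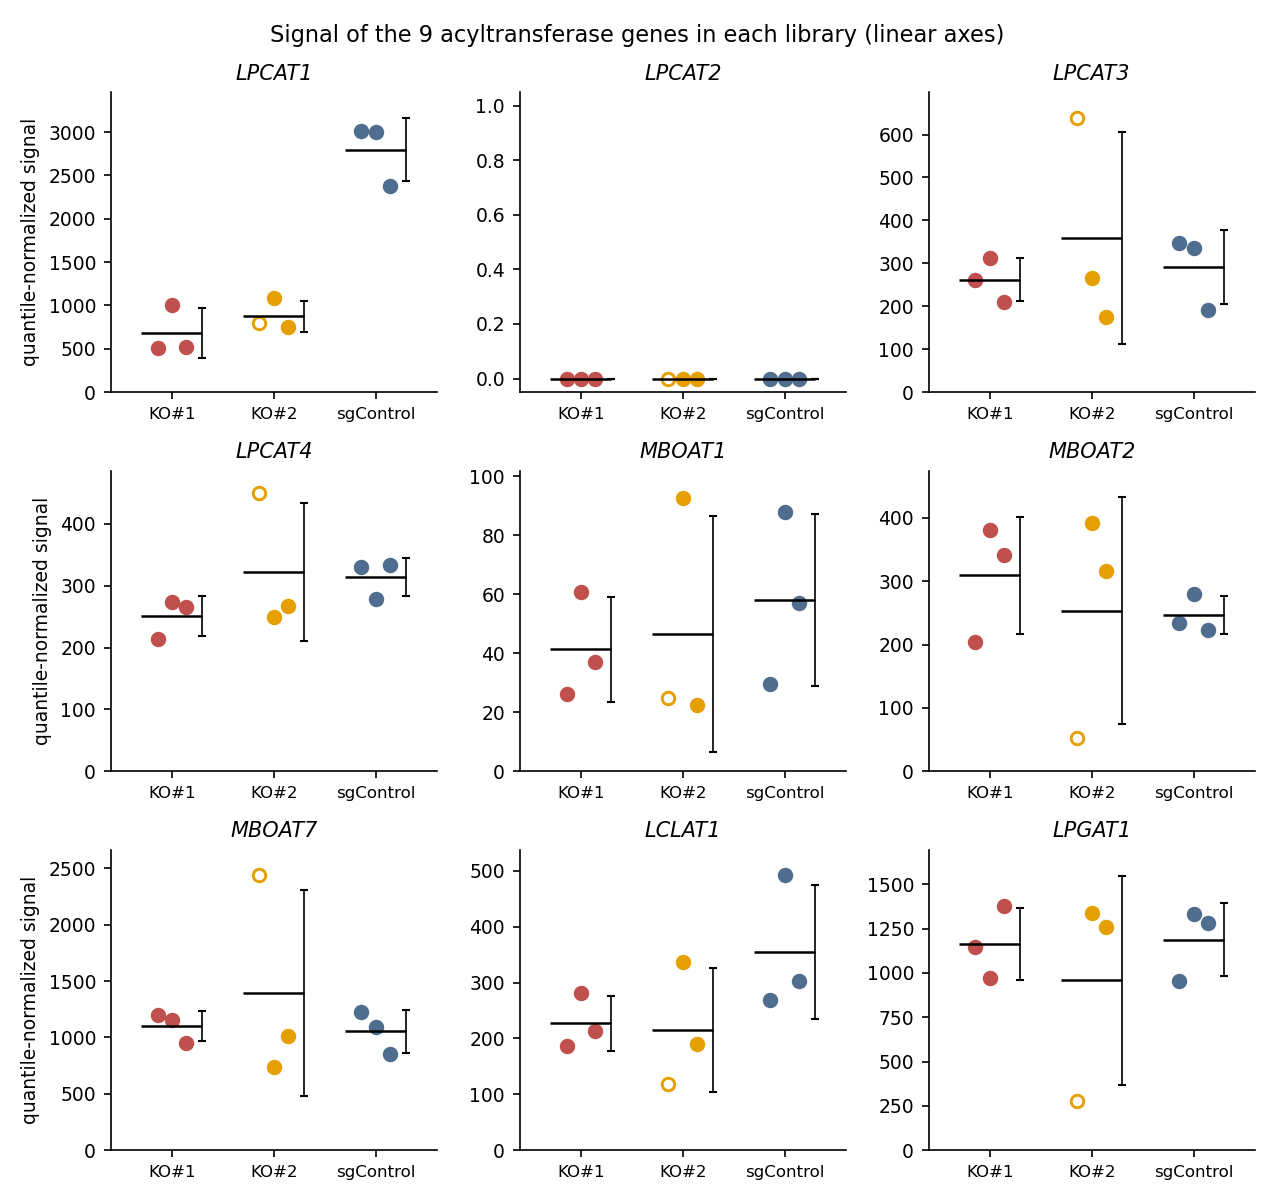
Quantile-normalized signal (linear axes) of the 9 acyltransferase genes in each library of KO#1, KO#2 and sgControl; points are libraries, lines are group means and error bars SD (n = 3). KO#2 replicate 1 is the hollow point. LPCAT1 lies at 506 to 1082 in the 6 knockout libraries and at 2378 to 3014 in sgControl, LPCAT2 is listed at 0 throughout, and the other genes overlap between groups except LPCAT4 in KO#1.

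Over the family, 1 of the 8 tested members was called in KO#1, where 2.33% of all tested genes were called, and 1 of 8 in KO#2, where the share was 2.04%. Lower calls were 0.97% of all tested genes in KO#1 and 0.87% in KO#2. LPCAT1 was also called for the mean of both guides, as were 3.1% of tested genes. Genes called in the same direction with both guides made up 1.38% of tested genes, and those lower with both, LPCAT1 among them, 0.454%. The median log2 fold change of the 8 members was -0.23 in KO#1 and -0.44 in KO#2, beside medians over all tested genes of 0.030 in KO#1 and -0.0096 in KO#2. Without KO#2 replicate 1 the count stayed at 1 of 8 with each guide, LPCAT1 again, while the share of all genes called was 12.3% in KO#1 and 8.02% in KO#2. LPCAT1 was then at -2.11 (adjusted p = 0.00131) in KO#1 and -1.63 (adjusted p = 0.0136) in KO#2.

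Of the other AGPAT-family members, LPCAT2 acylates lysophosphatidylcholine and also makes platelet-activating factor in inflammatory cells. LPCAT2 was listed at 0 in all 9 libraries, knockout and sgControl alike, so it entered no test, and whether it was not expressed or not counted cannot be told. It overlaps CAPNS2, a calpain subunit gene, which was also listed at 0.

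LPCAT4, which acts on lysophosphatidylethanolamine among other substrates, had a signal of 214, 273 and 265 in KO#1 libraries and of 450, 249 and 267 in KO#2 libraries, against 330, 279 and 333 in sgControl. All KO#1 libraries lay just below all sgControl libraries, as was so for 15.9% of all tested genes, and KO#2 overlapped sgControl. In KO#2, 8.34% of all tested genes lay below sgControl in every library. The log2 fold change of LPCAT4 was -0.33 in KO#1 (95% interval -1.05 to 0.40, adjusted p = 0.907) and -0.012 in KO#2 (95% interval -0.74 to 0.71, adjusted p = 0.988).

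LCLAT1, a lysocardiolipin acyltransferase that also places acyl chains on phosphatidylinositol, had a signal of 186, 280 and 213 in KO#1 libraries and of 119, 336 and 190 in KO#2 libraries, against 269, 492 and 303 in sgControl. The group means were lower in both knockouts, yet the highest library of each lay above the lowest sgControl library. It had the largest negative fold changes after LPCAT1, -0.61 in KO#1 (95% interval -1.56 to 0.33, adjusted p = 0.745) and -0.79 in KO#2 (95% interval -1.74 to 0.15, adjusted p = 0.455), and neither was called.

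LPGAT1, which acylates lysophosphatidylglycerol, had a signal of 1145, 973 and 1377 in KO#1 libraries and of 276, 1337 and 1260 in KO#2 libraries, against 954, 1331 and 1280 in sgControl. Apart from KO#2 replicate 1, all libraries fell in one range. The log2 fold change was -0.028 in KO#1 (95% interval -1.21 to 1.16) and -0.60 in KO#2 (95% interval -1.79 to 0.59), and without KO#2 replicate 1 the KO#2 value was 0.14.

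Among the membrane-bound O-acyltransferases, LPCAT3 puts linoleoyl and arachidonoyl chains on lysophosphatidylcholine and is a known target of the liver X receptors. Its signal was 262, 311 and 211 in KO#1, 639, 265 and 174 in KO#2 and 347, 336 and 191 in sgControl. The high value of KO#2 replicate 1 aside, the groups covered overlapping ranges. The log2 fold change was -0.12 in KO#1 (95% interval -1.18 to 0.93) and 0.14 in KO#2 (95% interval -0.92 to 1.19), and the KO#2 value was -0.39 without KO#2 replicate 1. LPCAT3 overlaps EMG1, a ribosome biogenesis gene with a signal of 283 to 761, and how the authors handled strand is not given in the sources used here.

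MBOAT7 attaches arachidonoyl chains to lysophosphatidylinositol. Its signal was 1195, 1155 and 954 in KO#1, 2438, 734 and 1009 in KO#2 and 1222, 1090 and 851 in sgControl. KO#1 and sgControl covered nearly the same range, and KO#2 held both the highest and the lowest of the 9 values. The log2 fold change was 0.072 in KO#1 (95% interval -0.85 to 1.00) and 0.22 in KO#2 (95% interval -0.70 to 1.15), and the KO#2 value was -0.28 without KO#2 replicate 1. MBOAT7 overlaps TSEN34, a tRNA splicing endonuclease gene with a signal of 313 to 910.

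MBOAT2 and MBOAT1 prefer oleoyl-CoA and act on lysophosphatidylethanolamine, MBOAT1 also on lysophosphatidylserine. MBOAT2 had a signal of 204, 381 and 342 in KO#1 libraries and of 51.7, 393 and 316 in KO#2 libraries, against 235, 280 and 223 in sgControl. Of the 6 knockout libraries, 4 lay above the sgControl range, and the log2 fold change was 0.28 in KO#1 (95% interval -1.17 to 1.74) and -0.39 in KO#2 (95% interval -1.85 to 1.06). Without KO#2 replicate 1 the KO#2 value was 0.52 (95% interval -0.12 to 1.16, adjusted p = 0.318). MBOAT1 was the lowest of the detected members, at 26.2, 60.9 and 36.9 in KO#1, at 24.7, 92.7 and 22.3 in KO#2 and at 29.6, 87.9 and 57.0 in sgControl. Replicate 2 was the highest library of each group for MBOAT1, and also for MBOAT2, LCLAT1 and ELOVL5, but not for the other detected members. The cause of this was not tested. The log2 fold changes of MBOAT1, -0.43 in KO#1 and -0.50 in KO#2, had 95% intervals from -1.85 to 0.98 in KO#1 and from -1.91 to 0.92 in KO#2.

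None of the 7 tested members other than LPCAT1 was called by limma in KO#1 or KO#2, and 0 of them had an unadjusted p under 0.05 in either, where 11.3% of all tested genes did in KO#1 and 13.5% in KO#2. The median over these 7 was -0.12 in KO#1 and -0.39 in KO#2, or -0.28 in KO#2 without KO#2 replicate 1. The widest of their intervals was that of MBOAT2, and the narrowest that of LPCAT4. KO#2 against KO#1 gave 0 called members of 8, as it gave 0 of all 12985 tested genes (0%), of which 529 had an unadjusted p under 0.05.

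**Figure D2:**
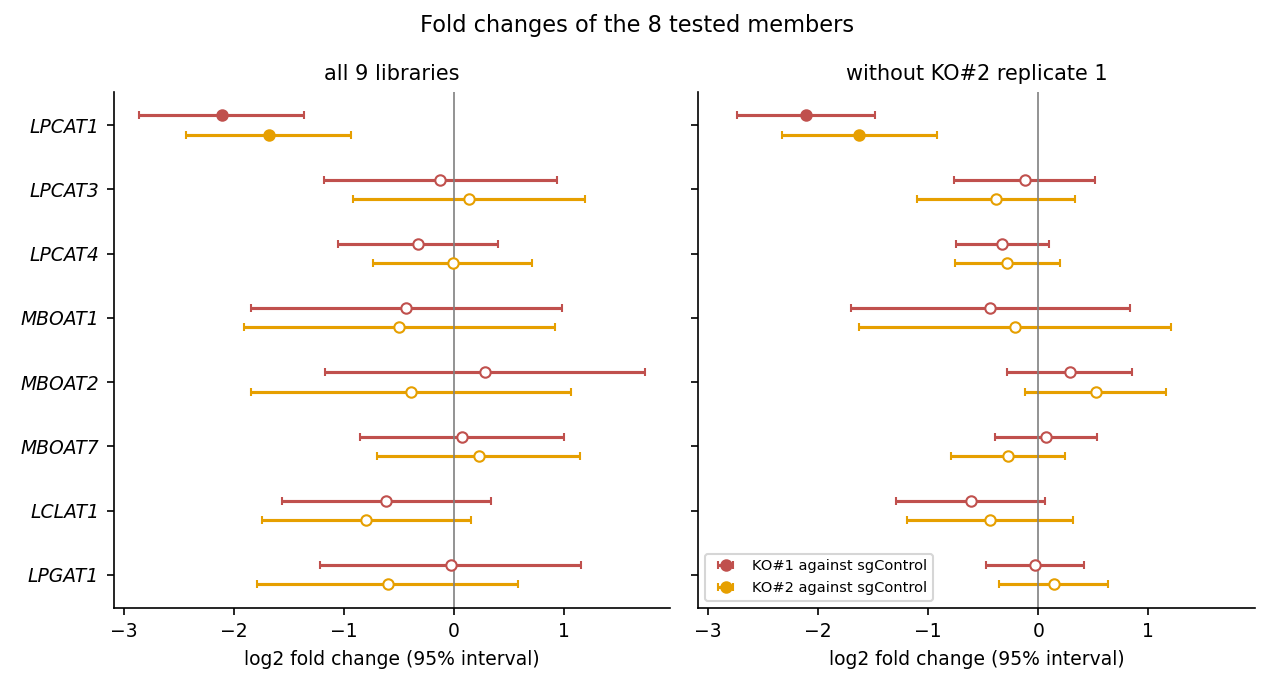
Log2 fold change (x axis) of the 8 tested members in KO#1 and KO#2 against sgControl, with all 9 libraries (left) and without KO#2 replicate 1 (right); bars are 95% intervals from limma and filled points were called. LPCAT1 is filled in both panels, at -2.11 in KO#1 and -1.68 in KO#2 with all libraries, and all other intervals include 0.

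In KO#2 replicate 1 the members of low GC content were below the other KO#2 libraries, and those above them had a high GC content. MBOAT2, with 38.9% GC in its longest transcript, had 0.146 times the mean signal of the other KO#2 libraries there, LPGAT1 (38.7% GC) 0.213 times and LCLAT1 (39.3% GC) 0.453 times. At the other end, LPCAT4 (56.7% GC) had 1.75 times, MBOAT7 (58.1% GC) 2.80 times and LPCAT3 (52.8% GC) 2.91 times that mean. LPCAT1 (53.7% GC) was at 0.873 times, close to the other KO#2 libraries, and MBOAT1 (48.0% GC) at 0.429 times. The library also held few reads of the low members: 5 for MBOAT1, 9 for MBOAT2, 19 for LCLAT1 and 52 for LPGAT1, as read back from tied values, where MBOAT1 had 24 to 74 reads in the 7 other libraries in which it could be read back. With a trend on GC content removed from every library, LPCAT1 stood at -2.14 in KO#1 (adjusted p = 0.00461) and -1.94 in KO#2 (adjusted p = 0.00928).

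**Figure D3:**
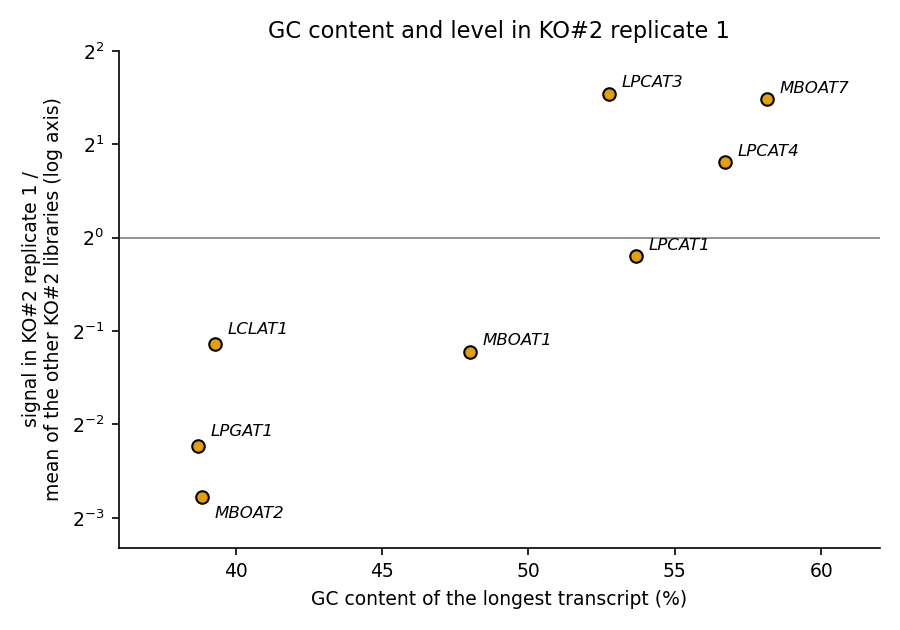
Signal in KO#2 replicate 1 divided by the mean of the other KO#2 libraries (y axis, log scale) against the GC content of each member's longest transcript (x axis, %), 1 point per tested member. Members under 40% GC lie at 0.146 to 0.453 times that mean and LPCAT3, LPCAT4 and MBOAT7 at 1.75 to 2.91 times it, while LPCAT1 lies at 0.873 times.

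Levels of different genes were compared per kb of coding length, which left LPCAT1 first in sgControl. There LPCAT1 had 1745 ± 226 signal per kb, LPGAT1 1071 ± 184 and MBOAT7 745 ± 133 (SD, n = 3). LCLAT1 followed at 286 ± 96.8 per kb, then LPCAT4 at 200 ± 19.4, LPCAT3 at 199 ± 59.6, MBOAT2 at 158 ± 19.3 and MBOAT1 at 39.2 ± 19.7. Of the neighbours in this order, LPGAT1 and MBOAT7, LPCAT4 and LPCAT3, and LPCAT3 and MBOAT2 overlapped over the libraries, and the means of LCLAT1 and LPCAT4 differed by less than the SD of LCLAT1. In the knockouts the mean of LPCAT1 was 423 ± 179 signal per kb in KO#1 and 547 ± 112 in KO#2, below those of LPGAT1 (1050 ± 183 in KO#1 and 863 ± 533 in KO#2) and MBOAT7 (778 ± 91.2 in KO#1 and 984 ± 646 in KO#2). In KO#2 this order was not settled by library. LPCAT1 lay above LPGAT1 in KO#2 replicate 1 (499 against 249) and above MBOAT7 in KO#2 replicate 2 (675 against 519). Per kb of the whole transcript, LPCAT1 averaged 171 ± 72.5 in KO#1, 221 ± 45.3 in KO#2 and 705 ± 91.3 in sgControl, where it was again first. Its mean was below that of MBOAT7 in both knockouts (436 ± 51.1 in KO#1 and 551 ± 362 in KO#2), and its place after MBOAT7 was not settled: it overlapped LPGAT1 in KO#1 (150 ± 26.1) and LPCAT3 in KO#2 (159 ± 109), and lay below LPGAT1 in KO#1 replicates 1 and 3 and below LPCAT3 in KO#2 replicate 1.

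As a share of the summed signal per kb of coding length over the 9 genes, LPCAT1 made up 13.9 ± 4.91% in KO#1, 17.0 ± 2.91% in KO#2 and 39.2 ± 2.80% in sgControl. With transcript length the shares were 15.3% in KO#1, 18.0% in KO#2 and 42.0% in sgControl. The sum over all 9 genes averaged 2998 per kb of coding length in KO#1, 3213 in KO#2 and 4442 in sgControl, and the lowest sgControl library (4007) lay above the highest knockout library (3339). Without LPCAT1 the sums were 2490, 2590 and 2644 in KO#1, 2841, 2648 and 2508 in KO#2 and 2557, 3011 and 2523 in sgControl. The groups then overlapped. Per kb of the whole transcript the sums over all 9 genes were 1035, 1233 and 1002 in KO#1, 1726, 1131 and 1035 in KO#2 and 1765, 1811 and 1453 in sgControl, so that KO#2 replicate 1 lay above the lowest sgControl library and the groups overlapped. Without LPCAT1 those sums averaged 919 in KO#1, 1076 in KO#2 and 971 in sgControl.

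**Figure D4:**
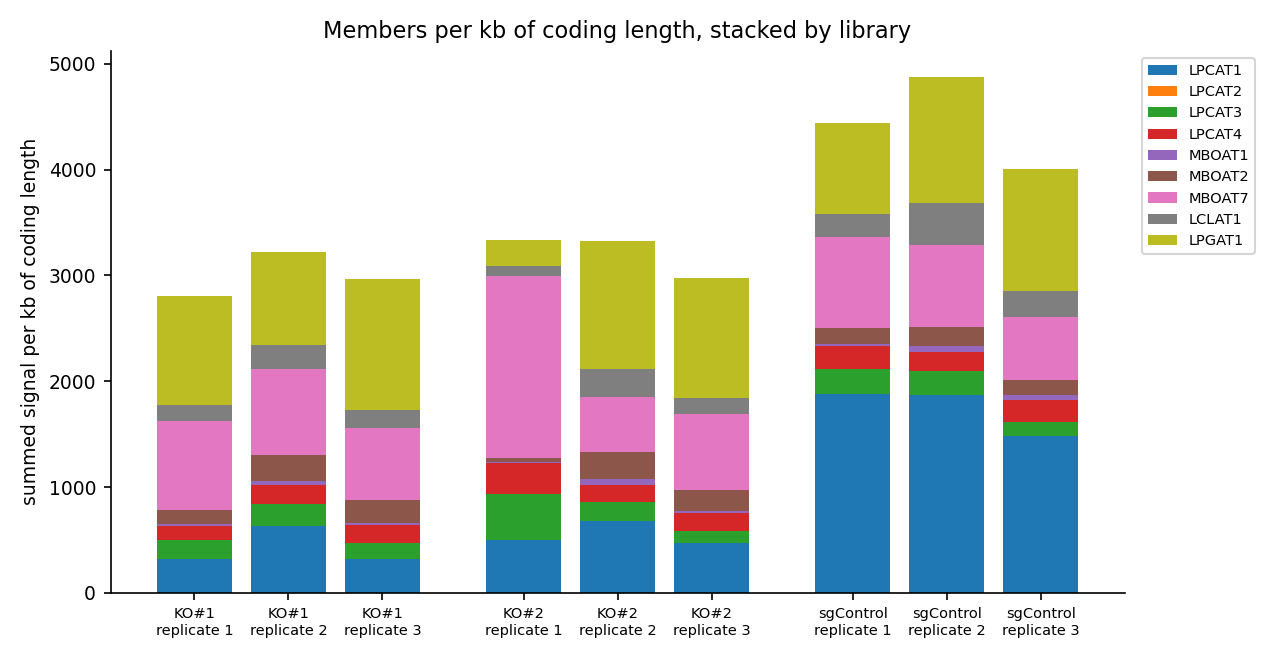
Signal per kb of coding length of the 9 members, stacked for each library of KO#1, KO#2 and sgControl (linear axis from 0). The LPCAT1 segment is shorter in all 6 knockout libraries, and the stack reaches 2806 to 3339 there and 4007 to 4881 in sgControl; in KO#2 replicate 1 MBOAT7 is tall and LPGAT1 short.

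LPCAT1 lies on chromosome 5, at place 15 of the 541 tested genes there in RefSeq order (GRCh38.p14), and most genes around it also had negative fold changes. Of the 20 nearest tested genes, 10 on each side, 19 had a negative log2 fold change in KO#1 and 18 in KO#2, with medians of -0.96 in KO#1 and -0.71 in KO#2, and 0 of the 20 were called in either. LPCAT1 was further down than all but 2 of them with each guide. For the mean of both guides all 20 were negative, and LPCAT1 was further down than all but 3. In that comparison 1 of the 20 was called lower, SDHAP3 (-2.53, adjusted p = 0.0354), beside 189 of all 12985 tested genes. Without KO#2 replicate 1 it had 10 of the 20 called lower, beside 982 of all 12985. With KO#2 replicate 1 left out, 7 of the 20 were called lower in KO#1 and 7 in KO#2, SDHAP3 (adjusted p = 0.00112 in KO#1 and 0.0197 in KO#2), SLC12A7 (0.00798 in KO#1 and 0.0464 in KO#2) and NDUFS6 (0.00757 in KO#1 and 0.0472 in KO#2) among them, where 6.27% of all tested genes were called lower in KO#1 and 4.14% in KO#2. On one side stood CLPTM1L, at -0.50 in KO#1 and -0.041 in KO#2, then TERT, the telomerase catalytic subunit, at -0.76 in KO#1 and 0.26 in KO#2, and SLC12A7, a potassium-chloride cotransporter, at -1.33 in KO#1 and -0.67 in KO#2. On the other side stood SDHAP3, a pseudogene, at -2.55 in KO#1 and -2.50 in KO#2, then MRPL36, a mitochondrial ribosomal protein gene, at -0.61 in KO#1 and -0.85 in KO#2, and NDUFS6, a subunit of respiratory complex I, at -1.19 in KO#1 and -0.48 in KO#2.

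Negative medians extended beyond these 20 genes. In successive blocks of 20 tested genes from the start of chromosome 5, the first 5 blocks had medians between -0.99 and -0.56 in KO#1 and between -1.39 and -0.80 in KO#2. The next block, places 101 to 120, had a median of -0.061 in KO#1 and -0.52 in KO#2, and over the whole chromosome the medians were -0.027 in KO#1 and -0.38 in KO#2. When the median of the 20 neighbours was taken off each gene in each library, LPCAT1 remained lower, at -1.16 in KO#1 (95% interval -1.89 to -0.43) and -1.01 in KO#2 (95% interval -1.74 to -0.29), and was no longer called (adjusted p = 0.103 in KO#1 and 0.172 in KO#2). With KO#2 replicate 1 left out as well, an alternative chosen after seeing the data, it was at -1.19 in KO#1 (adjusted p = 0.0229) and at -0.73 in KO#2 (adjusted p = 0.224).

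**Figure D5:**
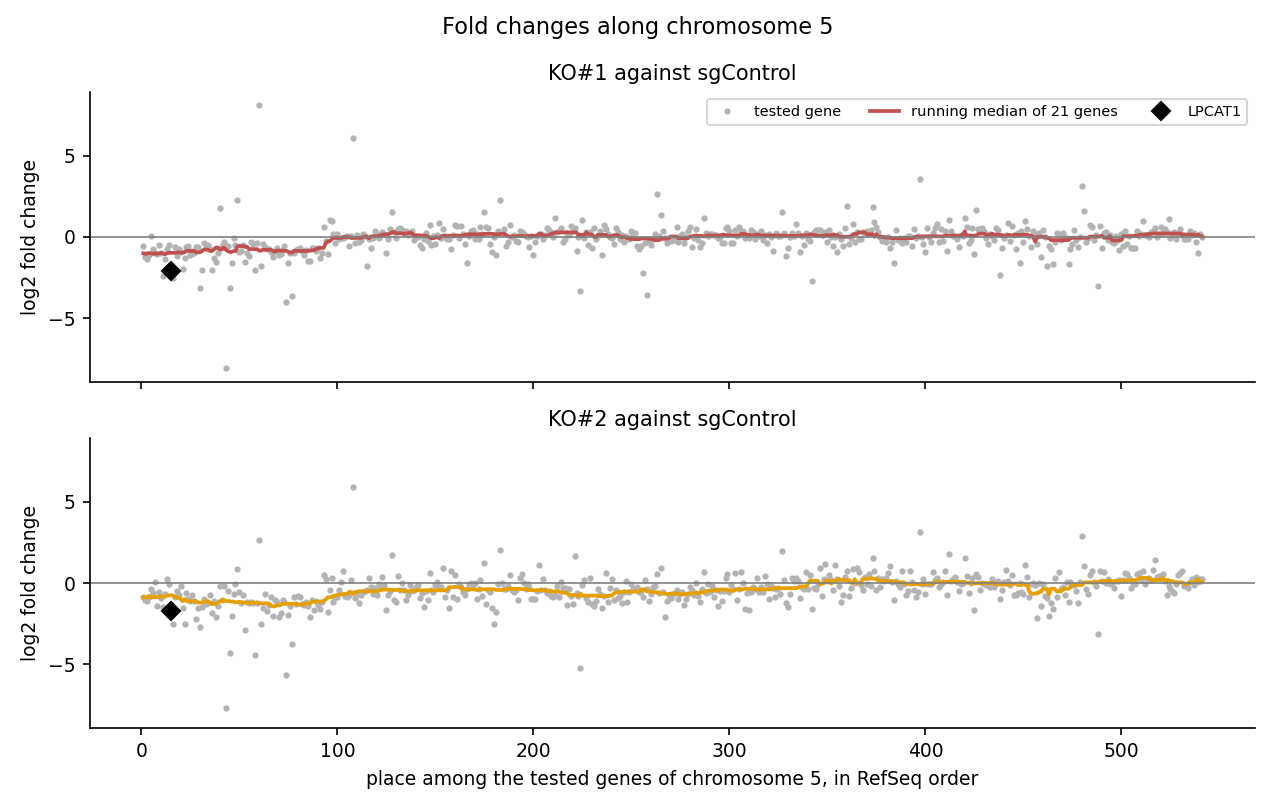
Log2 fold change (y axis) of the 541 tested genes of chromosome 5 in KO#1 and KO#2 against sgControl, by their place in RefSeq order (x axis); the line is a running median and the diamond is LPCAT1. Over the first 100 places the medians of blocks of 20 genes are -0.99 to -0.56 in KO#1 and -1.39 to -0.80 in KO#2, and LPCAT1 at place 15 lies under the line.

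The neighbours of the other members had medians nearer 0 in KO#1. Over 20 neighbours the median was 0.11 in KO#1 and 0.34 in KO#2 for LPCAT3, and 0.23 in KO#1 and 0.0088 in KO#2 for LPCAT4. For MBOAT1 it was -0.15 in KO#1 and -0.41 in KO#2, and for LPGAT1 0.10 in KO#1 and -0.18 in KO#2. For MBOAT7 it was 0.11 in KO#1 and 0.80 in KO#2. On chromosome 2, the neighbours of MBOAT2 had a median of -0.34 in KO#1 and -0.65 in KO#2, those of LCLAT1 -0.35 in KO#1 and -0.87 in KO#2, and LCLAT1 itself was at -0.61 in KO#1 and -0.79 in KO#2.

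The genes most like LPCAT1 over the 9 libraries, by Pearson's r of log2(value + 1) among tested genes with a signal above the median, were ADD2 (0.970), SEMA5A (0.958) and ZNF618 (0.955). These r values describe libraries that share the same 3 groups, and without KO#2 replicate 1 they were 0.972, 0.964 and 0.957. SEMA5A, a semaphorin gene, lies near LPCAT1, at place 30 of the tested genes of chromosome 5. Its block there, places 21 to 40, had medians of -0.91 in KO#1 and -1.24 in KO#2. The part of this stretch in the r value was not tested. SEMA5A had a signal of 346, 730 and 624 in KO#1 libraries and of 484, 1218 and 681 in KO#2 libraries, against 6594, 3616 and 4733 in sgControl. It was called lower with both guides (-3.16 in KO#1, adjusted p = 0.00393, and -2.71 in KO#2, adjusted p = 0.00876), in KO#2 not without sgControl replicate 1 or 3 (adjusted p up to 0.0650). ADD2, a spectrin-binding cytoskeletal protein gene, was called in KO#1 (-1.44, adjusted p = 0.0273), though not without any one of the KO#1 or sgControl libraries (adjusted p up to 0.169), and was at -1.14 in KO#2 (adjusted p = 0.0830). ZNF618, a zinc finger gene, was at -1.17 in KO#1 (adjusted p = 0.0926) and -1.20 in KO#2 (adjusted p = 0.0834). ZNF618 was called without KO#2 replicate 1 in KO#1 (adjusted p = 0.00884) and KO#2 (adjusted p = 0.0130), and ADD2 in KO#2 as well (adjusted p = 0.0167).

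On the other arm of the remodelling cycle, the phospholipases and lysophospholipases, 1 of 22 tested genes was called with each guide, and it was higher, as were 1.36% of all tested genes in KO#1 and 1.17% in KO#2. This was PLA2G4A, the cytosolic phospholipase that releases arachidonic acid from membrane phospholipids. Its signal was 108, 134 and 125 in KO#1 and 32.2, 64.6 and 76.3 in KO#2, against 2.56, 7.56 and 12.7 in sgControl. A feature with 10 reads had a signal of 7.89 to 13 over the sgControl libraries and of 55.7 to 63.3 in KO#2 replicate 1. PLA2G4A thus had 10 reads or fewer in each sgControl library and in KO#2 replicate 1, and its fold changes rest on values near the floor. All knockout libraries lay above all sgControl libraries. Every KO#1 library lay above sgControl for 18.2% of all tested genes, and every KO#2 library for 9.62%. The log2 fold change of PLA2G4A was 4.04 in KO#1 (SE 0.561, adjusted p = 0.00438) and 2.89 in KO#2 (SE 0.561, adjusted p = 0.0268). With 1 library left out PLA2G4A stayed called in KO#1, and in KO#2 only without sgControl replicate 3 or KO#2 replicate 1 (adjusted p up to 0.113 without the others). The list's median was 0.17 in KO#1 and 0.33 in KO#2. Of its 22 tested genes, 7 in KO#1 and 4 in KO#2 had an unadjusted p under 0.05, as did 11.3% of all tested genes in KO#1 and 13.5% in KO#2. Without KO#2 replicate 1 there were 5 higher and 3 lower calls in KO#1 and 4 higher in KO#2, PLA2G4A among both, where 5.99% of all tested genes were called higher and 6.27% lower in KO#1, and 3.88% higher and 4.14% lower in KO#2.

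None of the other lists had a call by limma. Among 14 tested genes that supply acyl-CoAs, 0 were called, and 4 in KO#1 and 3 in KO#2 had an unadjusted p under 0.05. The targeted gene ELOVL5 is on this list and was among those counted with each guide (unadjusted p = 0.0371 in KO#1 and 0.0170 in KO#2). Over all tested genes the share at an unadjusted p under 0.05 was 11.3% in KO#1 and 13.5% in KO#2. The median of these 14 genes was -0.45 in KO#1 and -0.45 in KO#2. The long-chain acyl-CoA synthetase ACSL1 had a signal of 608, 751 and 799 in KO#1 libraries and of 512, 2319 and 1744 in KO#2 libraries, against 2449, 2640 and 2733 in sgControl. It lay at -1.86 in KO#1 (adjusted p = 0.0943) and -1.03 in KO#2 (adjusted p = 0.389), and in KO#1 it was called without KO#2 replicate 1 (adjusted p = 0.000243). ELOVL6, which elongates saturated chains, was at 1.16 in KO#1 and 1.28 in KO#2, and called in KO#2 without that library (1.96, adjusted p = 0.0216).

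Phosphatidic acid synthesis, which feeds new phospholipid to the cycle, had 0 of 13 tested genes called, and 1 in KO#1 and 3 in KO#2 at an unadjusted p under 0.05. The phosphatidate phosphatase LPIN1 lay at -1.31 in KO#1 (adjusted p = 0.132) and at -0.53 in KO#2, LPIN3 0.75 in KO#1 and 0.96 in KO#2, and the lipase co-activator ABHD5 -0.52 in KO#1 and -1.29 in KO#2. Head group synthesis had 0 of 21 called, and 0 in KO#1 and 3 in KO#2 at an unadjusted p under 0.05. Its named genes were the ethanolamine kinase ETNK2 at 0.55 in KO#1 and 0.82 in KO#2, CDS1, which makes CDP-diacylglycerol, at 1.74 in KO#1 and -0.36 in KO#2, and the phosphatidylglycerophosphate phosphatase PTPMT1 at 0.31 in KO#1 and 1.07 in KO#2. CDS1 was listed at 0 in KO#2 replicate 1 and had 110 and 77.7 in the other KO#2 libraries, 47.9, 124 and 113 in KO#1 and 16.4, 23.1 and 43.4 in sgControl.

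The other membrane-bound O-acyltransferases had 0 of 4 tested genes called and 0 at an unadjusted p under 0.05. PORCN, which acylates Wnt proteins, was at 1.27 in KO#1 and 0.99 in KO#2, DGAT1, which makes triacylglycerol, at -0.93 in KO#1 and 0.24 in KO#2, and the sterol acyltransferase SOAT1 at 0.20 in KO#1 and -0.33 in KO#2. Platelet-activating factor metabolism had 0 of 9 called and 0 at an unadjusted p under 0.05, with PAFAH2, an acetylhydrolase, at 0.60 in KO#1 and 0.53 in KO#2, the ether lipid enzyme AGPS at 0.063 in KO#1 and -0.76 in KO#2, and the fatty acyl reductase FAR2 at -0.37 in KO#1 and -1.60 in KO#2. The liver X receptor list, to which LPCAT3 is tied as a target, had 0 of 7 called, and 1 in KO#1 and 0 in KO#2 at an unadjusted p under 0.05. The cholesterol exporter ABCA1 was at 1.33 in KO#1 (adjusted p = 0.188) and 0.14 in KO#2, the receptor NR1H3 at 0.23 in KO#1 and 0.87 in KO#2, and MYLIP, which degrades the LDL receptor, at -0.51 in KO#1 and -0.48 in KO#2. The median log2 fold change was 0.016 in KO#1 and -0.32 in KO#2 for phosphatidic acid synthesis, 0.068 in KO#1 and 0.41 in KO#2 for head groups, and 0.15 in KO#1 and 0.042 in KO#2 for the other membrane-bound O-acyltransferases. It was 0.063 in KO#1 and -0.28 in KO#2 for platelet-activating factor metabolism and 0.14 in KO#1 and 0.28 in KO#2 for the liver X receptor list. Without KO#2 replicate 1, the calls in KO#1 were 1 higher and 2 lower for phosphatidic acid synthesis, LPIN1 among the lower (adjusted p = 0.0179). Head groups had 1 higher, CDS1 (adjusted p = 0.0321), and the liver X receptor list 1 higher, ABCA1 (adjusted p = 0.0453). Acyl-CoA supply had 4 lower, ELOVL5 among them. In KO#2 without that library the calls were 1 higher and 1 lower for phosphatidic acid synthesis, 1 higher for head groups and 1 higher for acyl-CoA supply. The other lists had 0 in KO#2. Over all tested genes the calls without that library were 5.99% higher and 6.27% lower in KO#1 and 3.88% higher and 4.14% lower in KO#2.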

How the data were processed

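Per the labels' protocols, total RNA of ACHN cells was made into strand-specific libraries with the NEBNext Ultra Directional kit and read as paired ends on a NextSeq500. The deposited values are a signal that the authors made by quantile normalization of total counts, which the name of the table states, and all 9 columns hold the same sorted values. For the aligner, the counter and the annotation, nothing is given in the sources used here. Per the submitters' processing notes the build is mm10, although the gene names are human, so no coordinates are given, and RefSeq (GRCh38.p14) served only for gene order. Of the features, 32778 had a single RefSeq position by name.

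Values were transformed to log2(value + 1), and features whose mean signal over all 9 libraries reached 10 were tested with limma 3.58.1 in R 4.3.3: 1 model with 3 group means, a variance trend, two-sided tests and Benjamini-Hochberg adjustment. No count model was fitted. SE is the moderated standard error. Features with equal reads in a library keep table order among their tied ranks, which allowed low read numbers to be read back from runs of at least 12 features. The model and this reading were tested on simulated data. Coding and transcript lengths and GC content come from GENCODE 29; the planned lengths from protein sequences and the planned protein features were not analysed here.

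The text names the 9 members, ELOVL5, the called genes of each of 7 lists or else up to 3 with the largest mean change of both guides, the 3 genes most like a called member, and the 3 nearest neighbours on each side of one. Members, lists, tests and alternatives were chosen with earlier results of these data known, so their agreement with those results is no independent support. No library was left out of the main model, and 0 sample columns were unused. Alternatives were other pseudocounts, filters and variance models, library weights, removal of a GC trend or of the neighbours' median, and leaving out each library.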

Additional observations from a re-analysis of the deposited data

How the results depend on the processing

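No paired analysis was possible because the labels number the libraries straight through and the groups share no replicate number. LPCAT1 stayed lower than in sgControl with both guides under all 20 alternatives, at -2.44 to -1.16 in KO#1 and -1.94 to -0.73 in KO#2, and was called in 16 of them for KO#1 (highest adjusted p = 0.103) and 10 for KO#2 (highest adjusted p = 0.224); for KO#2 the adjusted p was 0.0510 with a mean of at least 100 and 0.0934 with only the groups compared in the model. No other member was called under any of them. The 1 called member became 0 with the neighbours' median removed (KO#1, KO#2, the mean of both guides and alike with both), and for KO#2 and alike with both guides also with a mean of at least 100, with only the groups compared, and without KO#2 replicate 1 with the neighbours' median removed. The cause was not tested. Leaving out 1 library gave 0 to 1 called members for KO#1, KO#2, the mean of both guides and alike with both; the mean was called in all but 1, without sgControl replicate 1.

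Counts over all genes moved more. In KO#1 there were 303 calls in the main model, 105 with a mean of at least 100 (fewer genes tested), 1883 with only the groups compared, 2765 with library weights and 1009 with the GC trend removed. In KO#2 there were 265, against 103, 79, 1293 and 945 under the same alternatives in that order. For the mean of both guides there were 403, against 152 with a mean of at least 100, 2808 with weights and 1383 with the GC trend removed, and alike with both guides 179, against 62, 76 with only the groups compared, 1125 and 608. KO#2 against KO#1 had 0, against 4 with a pseudocount of 10, 2 without a variance trend, 24 with weights and 11 with the GC trend removed. Without KO#2 replicate 1 and with the neighbours' median removed, the counts were 995 in KO#1, 646 in KO#2, 1196 for the mean, 484 alike and 15 for KO#2 against KO#1. Leaving out 1 library gave 96 to 1592 in KO#1, 95 to 1042 in KO#2, 155 to 1897 for the mean, 66 to 798 alike and 0 to 13 for KO#2 against KO#1, the highest of each without KO#2 replicate 1.

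Uncalled fold changes that crossed 0, in KO#2 unless KO#1 is named, were these. With library weights LPCAT3 was at -0.45, MBOAT2 at 0.42, MBOAT7 at -0.10, LPGAT1 at 0.11 (0.065 in KO#1), CDS1 at 1.49 (0.39 with a pseudocount of 10), DGAT1 at -0.28, SOAT1 at 0.19, AGPS at 0.090 and FAR2 at 0.00053. With the GC trend removed LPCAT3 was at -0.090, MBOAT2 at 0.087, MBOAT7 at -0.096, DGAT1 at -0.12, SOAT1 at 0.10 and AGPS at -0.012 in KO#1. With the neighbours' median removed LPCAT3 was at -0.22, MBOAT2 at 0.14, MBOAT7 at -0.79 (-0.20 in KO#1), LPIN1 at 0.28, LPIN3 at -0.056 (-0.039 in KO#1), CDS1 at 0.078 and DGAT1 at -0.23, and without KO#2 replicate 1 as well LPCAT3 was at -0.51, MBOAT2 at 0.88, MBOAT7 at -0.56 (-0.21 in KO#1), LPIN1 at 0.12, LPIN3 at -0.28 (-0.012 in KO#1), CDS1 at 1.87, DGAT1 at -0.38, SOAT1 at 0.25 and AGPS at 0.42. Leaving out 1 library gave -0.39 to 0.55 for LPCAT3 (-0.40 to 0.028 in KO#1), -0.28 to 0.15 for LPCAT4, -0.93 to 0.52 for MBOAT2, -0.28 to 0.59 for MBOAT7 (-0.074 to 0.19 in KO#1), -0.99 to 0.14 for LPGAT1 (-0.18 to 0.095 in KO#1), -0.23 to 0.41 for ABCA1, -1.43 to 0.24 for AGPS (-0.061 to 0.31 in KO#1), -1.58 to 1.82 for CDS1, -0.47 to 0.74 for DGAT1, -2.54 to 0.13 for FAR2 and -0.91 to 0.35 for SOAT1. Of LPCAT1's neighbours, with the neighbours' median removed SLC12A7 was at 0.15, NDUFS6 at 0.50, CLPTM1L at 0.73 (0.54 in KO#1), TERT at 0.25 in KO#1 and MRPL36 at 0.40 in KO#1, and without KO#2 replicate 1 as well CLPTM1L was at 0.88 (0.49 in KO#1), MRPL36 at 0.24 (0.41 in KO#1) and TERT at 0.22 in KO#1. TERT was at -0.18 with weights and -0.13 with the GC trend removed, leaving out 1 library gave -0.24 to 0.82 for TERT and -0.10 to 0.025 for CLPTM1L, and GALNT14 was at 0.16 with the neighbours' median removed. MBOAT1 gave no value with a mean of at least 100, nor did the mean of both guides with only the groups compared. Reads behind most members could not be read back, so their counting error is unknown.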

Other observations

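Genes that stood within 10 tested places of other members in RefSeq order were called although the member itself was not. GOLGA8A, a golgin family gene next to LPCAT4 on chromosome 15 with near-identical paralogs, averaged 347 in KO#1 and 234 in KO#2, against 36.2 in sgControl (log2 fold change 3.39 in KO#1, adjusted p = 0.00425, and 2.77 in KO#2, adjusted p = 0.0130, lost without sgControl replicate 2 or 3 or KO#2 replicate 3). Near MBOAT7 on chromosome 19, MYADM, a myeloid-associated membrane protein gene, averaged 1836 in KO#1 and 853 in KO#2 and was listed at 0 in sgControl. CACNG7, a calcium channel subunit gene there, averaged 69.6 in KO#1 and 246 in KO#2 and was also listed at 0 in sgControl, and OSCAR, an osteoclast receptor gene, averaged 69.9 in KO#1, 79.5 in KO#2 and 0.481 in sgControl, with both calls lost without any one of the sgControl libraries, the KO#1 call also without KO#1 replicate 1 or 3 and the KO#2 call without KO#2 replicate 3 (adjusted p up to 0.134 in KO#1 and 0.113 in KO#2 over the libraries left out). GALNT14, a glycosyltransferase gene next to LCLAT1 on chromosome 2, was called lower in KO#1 (-1.44, adjusted p = 0.0298, up to 0.199 without one of the KO#1 or sgControl libraries) and was at -0.60 in KO#2 (adjusted p = 0.406). Near MBOAT2, also on chromosome 2, KLF11, a Krüppel-like transcription factor gene, averaged 215 in KO#1, 256 in KO#2 and 541 in sgControl and was called lower in KO#1 (-1.33, adjusted p = 0.0490, and -1.10 in KO#2, adjusted p = 0.109). CYS1, a ciliary protein gene, averaged 293 in KO#1, 466 in KO#2 and 112 in sgControl and was called higher in KO#2 (2.05, adjusted p = 0.0341, and 1.46 in KO#1, adjusted p = 0.137). Both calls were lost without any one library other than KO#2 replicates 1 and 2 (adjusted p up to 0.267 for KLF11 and 0.149 for CYS1), and without KO#2 replicate 1 both genes were called with both guides. These genes were singled out after their values had been seen.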
